A study of Mus musculus with 8 samples.

Results

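The 51 genes described here encode small nucleolar RNAs (snoRNAs). They were taken as every gene whose symbol in the array annotation begins with Snora or Snord followed by a digit, out of 19938 genes with a probe set of their own, a rule that uses the symbol alone. Of these, 20 Snora genes belong to the H/ACA class and 31 Snord genes to the C/D class. The series comprises 8 Affymetrix arrays of Daxx knockout mouse embryonic fibroblasts (MEFs), with FVB/N as the background strain. Daxx is a histone H3.3 chaperone that works with the remodeller Atrx. The knockout cells were complemented with Daxx, in arrays titled DaxxA (n = 2) and DaxxB (n = 2), or with vector (n = 4), so every group carries the Daxx deletion. The labels do not say what distinguishes DaxxA from DaxxB, whether a group is a clone or a pool, or whether its arrays come from separate cultures. The p-values below therefore measure the spread between these arrays, which may be technical.

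snoRNAs are short non-coding RNAs that act in the nucleolus as guides. C/D snoRNAs pair with ribosomal RNA and direct fibrillarin to methylate the ribose of the paired base, whereas H/ACA snoRNAs direct dyskerin to convert uridine to pseudouridine. A few, among them the U17 (Snora73), U22 (Snord22), U14 (Snord14) and U8 (Snord118) snoRNAs, serve in the maturation of the ribosomal RNA precursor. Most mammalian snoRNAs lie in introns of another gene and are released by trimming of the excised intron, so that making them depends on transcription and splicing of that enclosing gene.

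The 2 classes are named for short sequence boxes, and RefSeq holds stretches of one gene of each that show them (mouse build GRCm38.p6). The first stretch is the entry for mmu-miR-5121, which coincides with the first 21 bases of the C/D gene Snord33, inside Rpl13a (chr7:45126925-45126945, minus strand), with the C box (UGAUGA) at bases 7 to 12 in capitals. The second is the part of the Mir664 hairpin that lies within the 3′ end of the H/ACA gene Snora36b (chr1:185242975-185243038, plus strand), with the ACA box, 3 bases from the end of the gene, in capitals. Snora36b is shown for its box only and is not one of the 51 genes, since its probe set also lists the microRNA.
Snord33: agcuugUGAUGAgacaucucc
Snora36b: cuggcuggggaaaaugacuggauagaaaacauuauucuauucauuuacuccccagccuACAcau

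Signals are log2 values on which a difference of 1 is a doubling, and the number of arrays limits their precision. Vector replicate 2 stood apart from the other arrays: the interquartile range of its signals was 2.79, against 3.31 to 3.46 on the other 7 arrays, and it correlated with the remaining arrays at 0.982 on average, against 0.994 to 0.995 for the others. The fits on all 8 arrays were therefore repeated on the 7 arrays without it. The Daxx probe set did not separate the conditions (mean 7.35 ± 0.096 on the Daxx arrays and 7.15 ± 0.216 on the vector arrays, SD, n = 4 each; adjusted p = 0.46, limma), so the conditions are those of the labels. As a floor for weak signal, the 1027 olfactory receptor genes, a family of the nasal sensory neurons, had a median of 4.73 and a 95th percentile of 6.07. All 10 fibroblast markers lay above that percentile (6.99 to 13.29), as did 2 of 4 epithelial markers (Krt8, 7.53, and Krt18, 6.23), 0 of 4 endothelial, 2 of 4 blood (Cd68, 7.32, and Cd3e, 6.46) and 2 of 4 neural markers (Map2, 8.63, and Sox10, 6.24).

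Most snoRNA genes were readily measured. Mean signals over the 8 arrays ranged from 4.96 to 11.95 among H/ACA genes, with a median of 7.37, and from 4.70 to 11.08 among C/D genes, with a median of 7.54. In all, 17 of 20 H/ACA genes and 27 of 31 C/D genes exceeded the 95th percentile of the olfactory receptor genes. The H/ACA genes with the strongest mean signals were Snora52 (11.95), Snora23 (10.83), Snora69 (10.36), Snora7a (9.42) and Snora21 (8.28). Among C/D genes they were Snord57 (11.08), Snord104 (10.21), Snord49b (10.10), Snord82 (10.07) and Snord14e (9.60). Below the percentile were Snora41 (4.96), Snora31 (5.97) and Snora62 (5.99) in the H/ACA class, and Snord58b (4.70), Snord61 (4.77), Snord38a (4.84) and Snord37 (5.73) in the C/D class. Probe sets differ in their affinity, so these signals do not rank the RNAs by abundance. The files also do not say whether a probe set reads the mature snoRNA or the unspliced transcript around it.

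**Figure D1:**
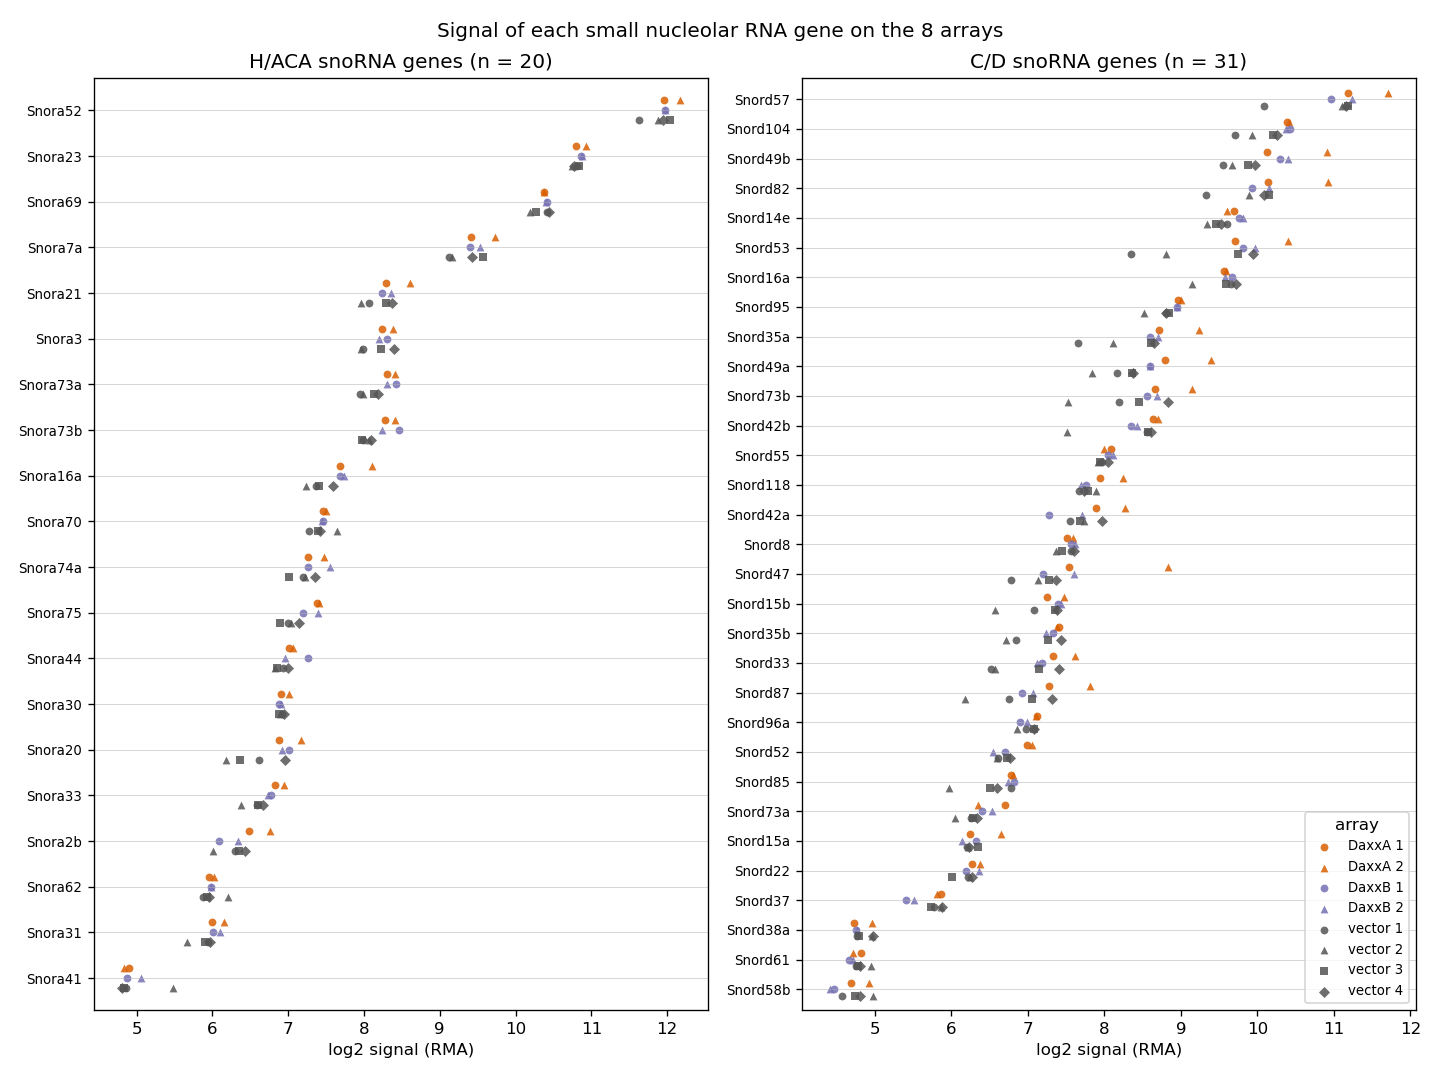
Log2 signal (horizontal axis) of each H/ACA gene (left, n = 20) and each C/D gene (right, n = 31) on the 8 arrays, ordered by mean. Orange points are DaxxA arrays, violet points DaxxB arrays and grey points vector arrays, with the replicate given by the symbol. DaxxA 2 is often the rightmost point of a C/D gene, and vector 1 or vector 2 the leftmost, as for Snord53 (10.40 on DaxxA 2, 8.34 on vector 1).

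The first comparison asked which snoRNA genes differed between knockout cells given Daxx and knockout cells given vector. Snora73a, Snora73b and Snora75 rose in the Daxx cells on 8 arrays, by 1.23-fold to 1.26-fold, and no snoRNA gene fell. These 3 called genes (adjusted p below 0.05 over all genes, limma) were 5.88% of the 51, against 1.8% of all genes called higher and 2.73% called lower. Snora73a and Snora73b are copies of the U17 snoRNA, whose yeast counterpart is required for 18S ribosomal RNA production, and both lie in the non-coding gene Snhg3. Because the copies are closely related, their probe sets may share signal and are not independent.

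Snora73b had signals of 8.28 and 8.41 on the DaxxA arrays and 8.47 and 8.24 on the DaxxB arrays, against 7.99, 8.07, 7.98 and 8.09 on the vector arrays. Every Daxx array lay above every vector array, and the log2 change was 0.32 ± 0.066 (SE; a 1.25-fold difference; adjusted p = 0.0313, limma, n = 4 each). Snora73a showed 8.30 and 8.41 in DaxxA cells and 8.42 and 8.31 in DaxxB cells, against 7.95, 7.99, 8.13 and 8.19 in vector cells. Again the groups did not overlap, with a change of 0.30 ± 0.069 (SE; 1.23-fold; adjusted p = 0.0494, limma). Snora75, the U23 snoRNA, lies in an intron of the nucleolin gene Ncl. Its signals were 7.38 and 7.40 on the DaxxA arrays and 7.20 and 7.39 on the DaxxB arrays, against 6.997, 7.04, 6.90 and 7.14 on the vector arrays. Its groups did not overlap either (change 0.33 ± 0.072, SE; 1.26-fold; adjusted p = 0.0384, limma).

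These calls lay close to the threshold. When each array was left out in turn, Snora73a was called in 2 of 8 fits, Snora73b in 2 and Snora75 in 3, while their changes stayed between 0.26 and 0.38. No snoRNA gene was called without vector 1, vector 3, DaxxA 1 or DaxxA 2, 1 was called without DaxxB 1 and 1 without DaxxB 2, and 3 were called without vector 4. In the fits with none called, 11 to 15 snoRNA genes had an unadjusted p under 0.05 (limma), against 12.6% to 13.6% of all genes. Calls over all genes fell in the same fits: 2.24% to 2.8% were called in either direction when an array other than vector 2 was left out, against 4.52% on 8 arrays.

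Without vector replicate 2, 7 snoRNA genes rose and 0 fell (limma; 15 and 0 at an unadjusted p under 0.05, against 11.9% and 12.8% of all genes), which is 13.7% of the 51. Of all genes, 5.26% were then called higher and 7.57% lower. Those called were Snora73a, Snora73b, Snora75, Snora16a, Snora33, Snord49b and Snord95, so that 5 of 20 H/ACA and 2 of 31 C/D genes were called. Snora16a, in the non-coding gene Snhg12, had 7.69 and 8.11 in DaxxA cells and 7.68 and 7.73 in DaxxB cells, against 7.37, 7.41 and 7.59 on the 3 remaining vector arrays. DaxxA 2 stood well above the other Daxx arrays there (1.27-fold on 7 arrays, adjusted p = 0.0475; 1.32-fold on 8 arrays, adjusted p = 0.0958, limma). Snora33, in the ribosomal protein gene Rps12, had 6.82 and 6.94 in DaxxA cells and 6.77 and 6.74 in DaxxB cells, against 6.58, 6.60 and 6.67 on those vector arrays (1.15-fold, adjusted p = 0.0374; 0.113 on 8 arrays). Vector replicate 2 had a lower value for Snora33 than any other array, 6.38, and for Snora16a, 7.23.

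Of the 2 C/D genes called, Snord49b had the larger change. Its signals were 10.12 and 10.91 on the DaxxA arrays and 10.30 and 10.40 on the DaxxB arrays, against 9.55, 9.67, 9.88 and 9.97 on the vector arrays. All Daxx arrays exceeded all vector arrays, with a 1.55-fold difference on 7 arrays (adjusted p = 0.0274, limma) and a 1.59-fold difference on 8 (0.0624). Its neighbour Snord49a, in the same non-coding gene, 2410006H16Rik, was not called: it had 8.79 and 9.40 in DaxxA cells and 8.59 and 8.59 in DaxxB cells, against 8.16, 7.84, 8.36 and 8.38 in vector cells (1.46-fold on 7 arrays, adjusted p = 0.0584; 1.58-fold on 8, adjusted p = 0.111, limma). Snord95, in the gene of the ribosomal scaffold protein Rack1, differed little but evenly. It had 8.97 and 8.997 in DaxxA cells and 8.95 and 8.95 in DaxxB cells, against 8.81, 8.52, 8.84 and 8.81 in vector cells, the 8.52 being vector 2 (1.11-fold on 7 arrays, adjusted p = 0.0373; 1.17-fold on 8 arrays, adjusted p = 0.184, limma).

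Other members had larger differences that did not pass the test, and arrays of one group disagreed in them. Snord53, in Wdr43, a gene for a ribosome assembly factor, had 9.71 and 10.40 in DaxxA cells and 9.82 and 9.97 in DaxxB cells, against 8.34, 8.81, 9.74 and 9.94 in vector cells. Vector 3 and vector 4 lay within the Daxx range, and the change of 0.76 (95% interval -0.01 to 1.54) was not called (adjusted p = 0.335; 0.63 and 0.262 on 7 arrays, limma, n = 4 each on 8). Snord47, one of the snoRNAs of the growth arrest gene Gas5, had 7.53 and 8.83 in DaxxA cells and 7.20 and 7.61 in DaxxB cells, against 6.79, 7.14, 7.28 and 7.38 in vector cells. A single array, DaxxA 2, was far above the rest (change 0.65, 95% interval -0.07 to 1.37; adjusted p = 0.393; 0.64 and 0.242 on 7 arrays, limma). Snord35a, in Rpl13a, whose snoRNAs have been implicated in the lipotoxic stress response, had 8.71 and 9.23 in DaxxA cells and 8.59 and 8.70 in DaxxB cells, against 7.65, 8.11, 8.61 and 8.65 in vector cells. DaxxB 1 lay below vector 3 and vector 4, and the adjusted p was 0.292 on 8 arrays and 0.197 on 7 (limma). Snora20, in the chaperonin gene Tcp1, had the largest change of the H/ACA genes, 0.47 (95% interval 0.11 to 0.82; adjusted p = 0.171; 0.35 and 0.098 on 7 arrays, limma). It had 6.88 and 7.18 in DaxxA cells and 7.01 and 6.92 in DaxxB cells, against 6.62, 6.17, 6.36 and 6.96 in vector cells. Vector 4 lay within the Daxx range.

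Counting members whose groups did not overlap at all, 12 of 51 snoRNA genes (6 H/ACA and 6 C/D) had every Daxx array above every vector array on 8 arrays, and 0 had the reverse. Of all genes, 8.02% had every Daxx array above and 6.79% every Daxx array below. On 7 arrays 14 snoRNA genes (8 H/ACA and 6 C/D) had every Daxx array above and 0 every Daxx array below, against 11.5% and 12.9% of all genes. Beside the genes above, on 8 arrays Snora31, Snord104, Snord14e and Snord73a were among them. Snord104 had 10.38 and 10.41 in DaxxA cells and 10.42 and 10.37 in DaxxB cells, against 9.70, 9.94, 10.20 and 10.26 in vector cells (1.29-fold, adjusted p = 0.128; 1.27-fold on 7 arrays, adjusted p = 0.0696, limma). Snord14e, a copy of U14 in the heat shock gene Hspa8, had 9.70 and 9.61 in DaxxA cells and 9.76 and 9.81 in DaxxB cells, against 9.60, 9.35, 9.46 and 9.52 in vector cells (1.18-fold, adjusted p = 0.122; 1.14-fold on 7 arrays, adjusted p = 0.0541, limma). The 4 Daxx arrays of Snord104 were close together and its vector arrays were spread, whereas Snord14e differed less.

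At the other end of the range, no gene was called. The lowest changes on 8 arrays were those of Snord37 (-0.16), Snord58b (-0.16), Snord61 (-0.09) and Snora41 (-0.08, but 0.08 on 7 arrays), all with mean signals under the 95th percentile of the olfactory receptor genes. Among the 5 H/ACA genes with the strongest signals, Snora23 had a change of 0.08 (95% interval -0.04 to 0.19) and Snora69 one of 0.07 (-0.08 to 0.22). The changes of Snora52 (0.14, -0.07 to 0.36), Snora7a (0.20, -0.07 to 0.46) and Snora21 (0.20, -0.05 to 0.45) were larger, with wider intervals. Of the snoRNAs that serve in precursor maturation, Snord118 (U8) had a change of 0.14 (adjusted p = 0.665; 0.18 and 0.362 on 7 arrays, limma) and Snord22 (U22) one of 0.11 (adjusted p = 0.584; 0.13 and 0.285 on 7).

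**Figure D2:**
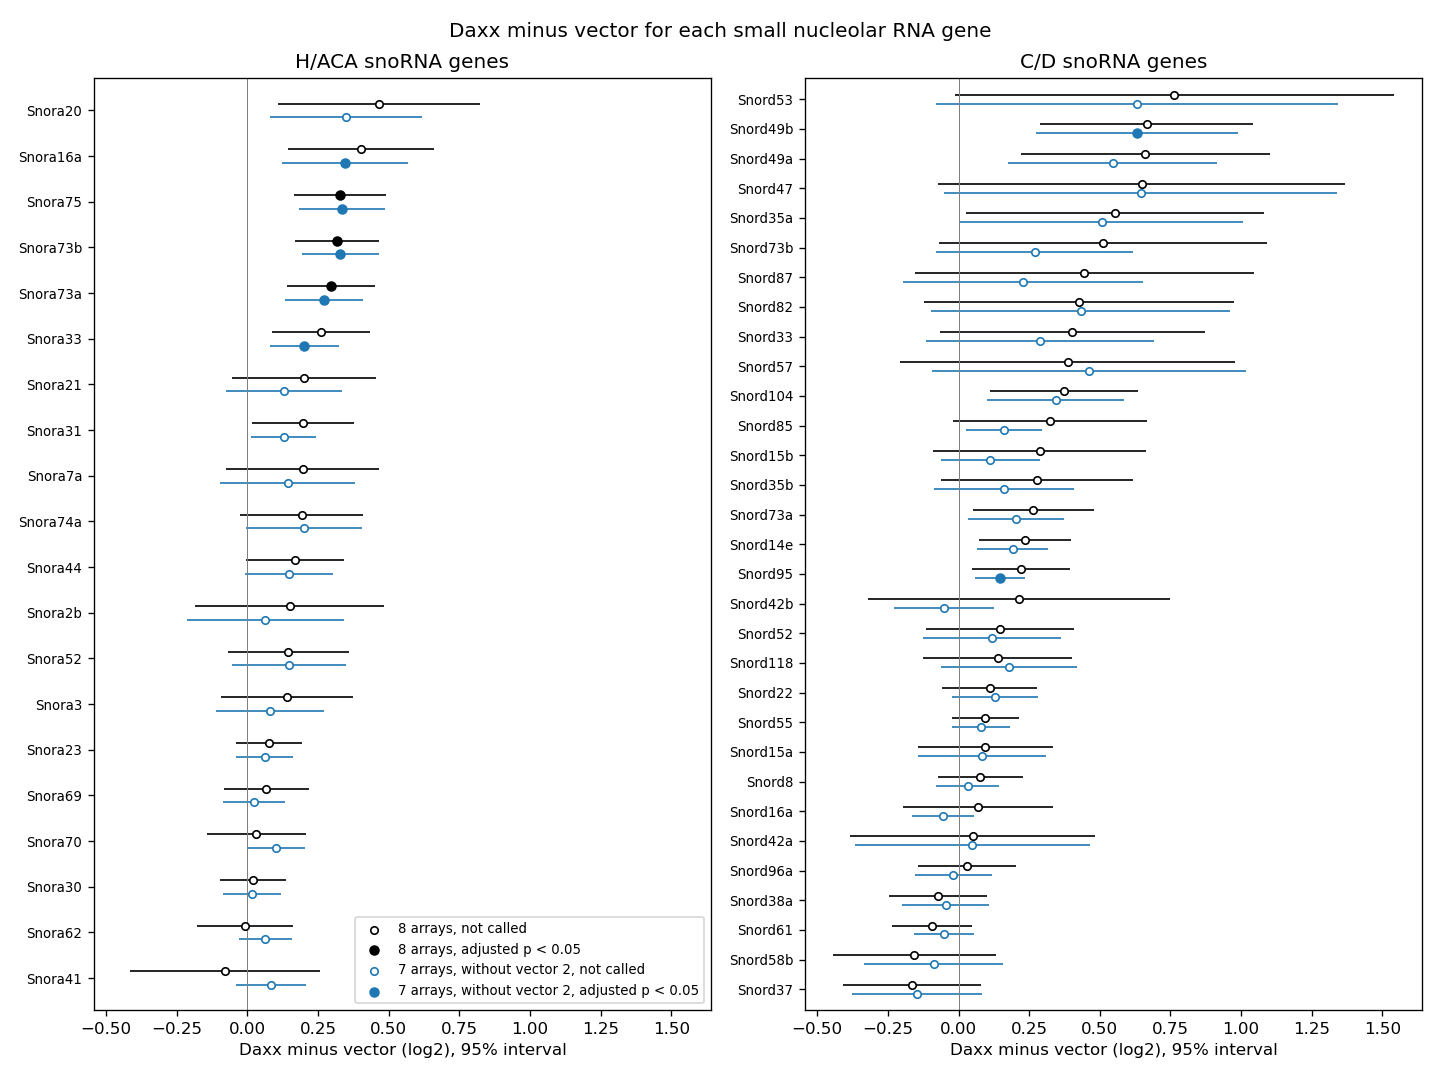
Difference of Daxx minus vector on the log2 scale (horizontal axis) with its 95% interval for each H/ACA gene (left) and C/D gene (right), on 8 arrays (black) and on 7 arrays without vector 2 (blue). Filled points have an adjusted p below 0.05: Snora73a, Snora73b and Snora75 on 8 arrays, and these with Snora16a, Snora33, Snord49b and Snord95 on 7.

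Across the classes, snoRNA genes, whether called or not, lay mostly on the same side. On 8 arrays 18 of 20 H/ACA genes and 27 of 31 C/D genes had a change above 0, against 41.8% of all genes. The median change was 0.18 for H/ACA genes, 0.24 for C/D genes and -0.03 for all genes. The values for all genes include weak signals and are not matched to the members for signal. The olfactory receptor genes had a median change of -0.10 on 8 arrays and 0.02 on 7. At an unadjusted p under 0.05, 14 of 51 snoRNA genes were higher (7 in each class) and 0 lower, against 7.96% and 7.47% of all genes. Without vector 2, 20 of 20 H/ACA and 24 of 31 C/D genes had a change above 0, against 57.1% of all genes, and the medians were 0.14, 0.16 and 0.02. These genes share arrays, and several share an enclosing gene, so they are not independent.

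The size of these medians rested in part on single arrays. Measured as the median deviation of each gene from its own 8-array mean, the C/D genes lay at 0.11 and 0.23 on the DaxxA arrays and 0.03 and 0.08 on the DaxxB arrays, against -0.13, -0.27, -0.01 and 0.06 on the vector arrays. H/ACA genes lay at 0.02 and 0.19 on the DaxxA arrays and 0.03 and 0.05 on the DaxxB arrays, against -0.13, -0.16, -0.07 and 0.00 on the vector arrays. DaxxA 2 was thus the highest array of both classes, vector 1 and vector 2 were the lowest, and vector 4 reached the level of the DaxxB arrays in the C/D class. DaxxA 2 gave the highest value of 18 of 31 C/D genes and 11 of 20 H/ACA genes, against 6.92% of all genes. Vector 1 gave the lowest value of 9 C/D and 5 H/ACA genes, against 8.28% of all genes, and vector 2 that of 14 and 10, against 29.4%.

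Leaving out vector 1 and vector 2 together gave a median change of 0.08 for both classes, with 19 of 20 H/ACA and 22 of 31 C/D genes above 0, against 56.1% of all genes. In that fit 3 snoRNA genes (Snora73b, Snora75 and Snord85) rose and 0 fell, against 2.9% and 5.01% of all genes. Leaving out vector 1 and DaxxA 2 together gave 0.09 for H/ACA and 0.17 for C/D genes, with 16 and 22 genes above 0, against 43.6% of all genes. There 0 snoRNA genes were called (limma; 11 higher and 1 lower at an unadjusted p under 0.05, against 5.75% and 5.16% of all genes), while 0.266% of all genes were called higher and 0.893% lower. The C/D genes varied more within a condition than the H/ACA genes. Their median SD was 0.222 on the Daxx arrays and 0.191 on the vector arrays, against 0.095 and 0.144 for the H/ACA genes. Without vector 2 the vector values were 0.121 and 0.083. The Daxx arrays pool DaxxA and DaxxB, so their SD also holds the difference between those groups (median 0.17 for C/D and 0.04 for H/ACA genes).

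**Figure D3:**
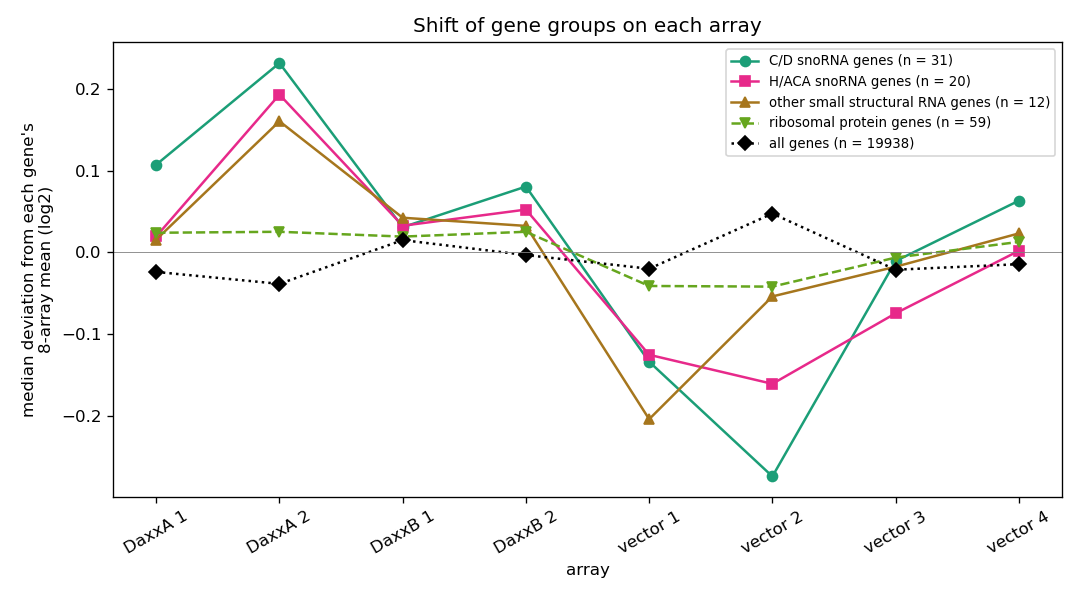
Median deviation of each group of genes from their own 8-array means (vertical axis, log2) on each array (horizontal axis, DaxxA and DaxxB arrays left, vector arrays right). The C/D and H/ACA genes peak on DaxxA 2 (0.23 and 0.19) and are lowest on vector 2 (-0.27 and -0.16). Other small structural RNAs, a list that includes the C/D snoRNA gene Rnu3a, also peak on DaxxA 2 (0.16) but are lowest on vector 1 (-0.20). The median of all genes stays between -0.04 and 0.05.

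DaxxA and DaxxB were then set against vector separately, in 1 fit of the 3 groups. These comparisons share the vector arrays. On 8 arrays no snoRNA gene was called in DaxxA cells (limma, n = 2 against 4; 18 were higher and 0 lower at an unadjusted p under 0.05, against 5.4% and 6.03% of all genes), where 0.522% of all genes were called higher and 1.45% lower. None was called in DaxxB cells either (6 higher and 2 lower at an unadjusted p under 0.05, against 7.57% and 6.89% of all genes), where 0.767% of all genes were called higher and 1.92% lower. The median difference from vector was 0.20 for H/ACA and 0.33 for C/D genes in DaxxA cells. In DaxxB cells it was 0.13 and 0.18.

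Without vector 2, 10 snoRNA genes rose in DaxxA cells and 0 fell, against 4.46% of all genes higher and 6.8% lower. Beside Snora16a, Snora33, Snora73a, Snora73b, Snora75, Snord49b and Snord95 these were Snord49a, Snord52 and Snord118. In DaxxB cells 4 rose (Snora73a, Snora73b, Snora75 and Snord14e) and 3 fell (Snord37, Snord42b and Snord58b), against 10.9% of all genes higher and 9.53% lower. Snora73a, Snora73b and Snora75 were called in both comparisons, with differences of 0.27, 0.32 and 0.38 in DaxxA cells and 0.27, 0.34 and 0.29 in DaxxB cells. With vector 1, vector 3 or vector 4 left out instead, no snoRNA gene was called in either comparison (limma). Of all genes, 0.868% to 1.19% were then called in either direction. At an unadjusted p under 0.05 (limma), 12 to 24 snoRNA genes passed in DaxxA cells, against 8.78% to 11.6% of all genes. In DaxxB cells 7 to 11 passed, against 11.5% to 12.9% of all genes. Leaving out a Daxx array leaves its group without a replicate, so those fits are not counted here.

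The direct test of DaxxA against DaxxB called 0 snoRNA genes on 8 arrays and 0% of all genes in either direction (limma; 6 snoRNA genes higher in DaxxA and 0 lower at an unadjusted p under 0.05, against 1.73% and 2.52% of all genes). In the fit without vector 2, Snord37, Snord42b and Snord52 were higher in DaxxA than in DaxxB, against 0.787% of all genes called higher and 1.36% lower. Snord52 had 6.995 and 7.06 in DaxxA cells and 6.70 and 6.55 in DaxxB cells, beside 6.62, 6.73 and 6.77 on the vector arrays left in that fit (adjusted p = 0.0298, limma). Snord37, in the elongation factor gene Eef2, had 5.86 and 5.82 in DaxxA cells and 5.40 and 5.51 in DaxxB cells, beside 5.77, 5.73 and 5.89 on those vector arrays (adjusted p = 0.0291, limma). Snord52 was high in DaxxA cells, with DaxxB near the vector level, while Snord37 was low in DaxxB cells, at signals under the 95th percentile of the olfactory receptor genes. Snord42b, in Rpl23a, had 8.63 and 8.70 in DaxxA cells and 8.35 and 8.42 in DaxxB cells (adjusted p = 0.0348, limma). The arrays compared here are the same in both fits, and the left-out array enters only through the shared estimate of the spread. Over the class, 26 of 31 C/D genes and 13 of 20 H/ACA genes were higher in DaxxA than in DaxxB, against 36.2% of all genes. The medians were 0.17 for C/D and 0.04 for H/ACA genes. Leaving out DaxxA 2 and vector 1 left 21 C/D and 5 H/ACA genes higher, with medians of 0.08 and -0.02, against 40.5% of all genes.

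Because snoRNAs are cut from the introns of other genes, each member was set beside the gene that encloses it in the RefSeq table. Of the 51 genes 50 lay inside another gene, 21 of them in ribosomal protein genes and 13 in long non-coding RNA genes, and these were 40 different genes. The exception was Snord118. For 27 members the enclosing gene had a probe set of its own, which made 23 different enclosing genes. Of these enclosing genes, 0 were called on 8 arrays (limma; 4 higher and 1 lower at an unadjusted p under 0.05), and 2 rose and 0 fell on 7. Of all genes, 1.8% were called higher and 2.73% lower on 8 arrays (7.96% and 7.47% unadjusted), and 5.26% and 7.57% on 7, so that 2 of 23 was near the share of all genes. The 2 were Nop56, the core C/D protein, which holds Snord57 (0.19, adjusted p = 0.041, limma), and Kansl2, which holds Snora2b (0.19, adjusted p = 0.0409).

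Most members had a larger change than their enclosing gene, though the difference within a pair was not tested. Some pairs were alike, such as Snord16a (0.07) and Rpl4 (0.06). The change of the member was above that of its enclosing gene in 21 of 27 cases on 8 arrays and in 19 of 27 on 7, with median changes of 0.20 for the members and 0.06 for the enclosing genes on 8 arrays, and 0.11 and 0.05 on 7. Ncl, which encloses Snora75, had 11.97 and 11.98 in DaxxA cells and 11.82 and 11.92 in DaxxB cells, against 11.79, 11.94, 11.80 and 11.87 in vector cells. It overlapped between the conditions (0.07, adjusted p = 0.657, limma), where Snora75 did not, and the second snoRNA in Ncl, Snord82, overlapped too (0.42, adjusted p = 0.488). Wdr43 ranged over only 0.19 across the 8 arrays, while Snord53 within it ran between 8.34 and 10.40. Gas5 had the largest change of the measured enclosing genes. It had 10.12 and 10.56 in DaxxA cells and 10.15 and 10.21 in DaxxB cells, against 9.45, 9.63, 9.96 and 10.01 in vector cells (0.49, adjusted p = 0.115, limma), beside 0.65 for Snord47. In both, DaxxA 2 was the highest array and vector 1 the lowest. Snhg3, Snhg12, 2410006H16Rik and Rack1 had no single-symbol probe set, so the called genes Snora73a, Snora73b, Snora16a, Snord49b and Snord95 could not be set beside theirs.

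**Figure D4:**
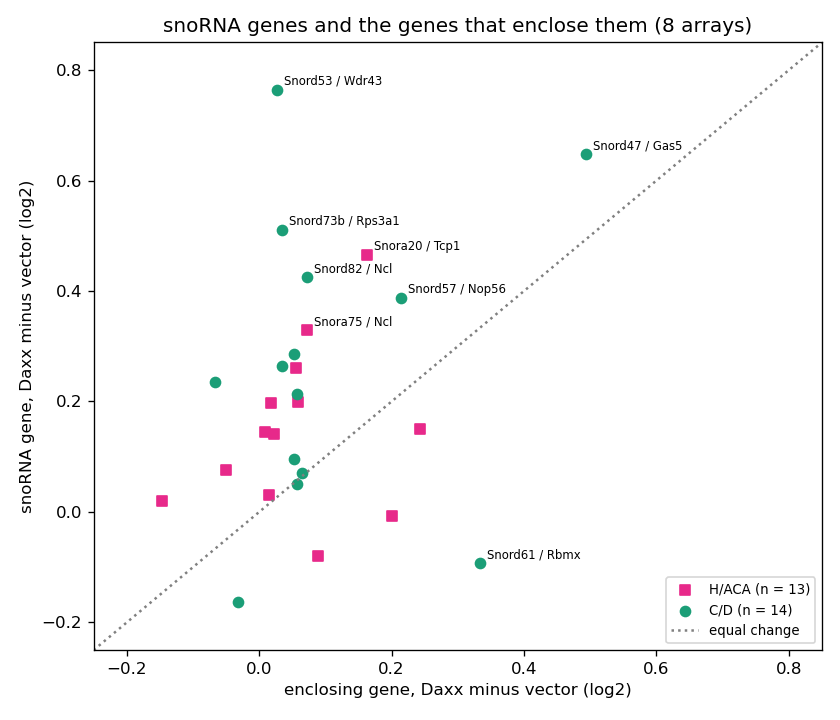
Change of the snoRNA gene (vertical axis) against change of its enclosing gene (horizontal axis), Daxx minus vector on the log2 scale over 8 arrays, for the 27 members whose enclosing gene was measured (13 H/ACA squares, 14 C/D circles). Points above the dotted line of equal change (21 of 27) are snoRNA genes with the larger change, such as Snord53 (0.76, Wdr43 0.03).

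Genes that enclose snoRNAs often belong to the TOP family, whose transcripts start with a C followed by a run of pyrimidines. The promoters that enclose the members called on 8 or 7 arrays are shown for that reason, from 60 bases before to 20 after the RefSeq start, in GRCm38.p6 and on the transcribed strand. Capitals mark CTTTC and CTTTT within 20 bases of the start on either side. The enclosed members are Snora73a and Snora73b for Snhg3 (chr4:132353667-132353746, minus), Snora75 for Ncl (chr1:86359436-86359515, minus), Snora16a for Snhg12 (chr4:132308618-132308697, plus), Snora33 for Rps12 (chr10:23787190-23787269, minus), Snord49b for 2410006H16Rik (chr11:62602817-62602896, plus) and Snord95 for Rack1 (chr11:48800300-48800379, plus).
Snhg3: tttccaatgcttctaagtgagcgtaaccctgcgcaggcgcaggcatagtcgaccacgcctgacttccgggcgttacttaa
Ncl: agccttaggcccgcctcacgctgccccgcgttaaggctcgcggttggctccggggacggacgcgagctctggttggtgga
Snhg12: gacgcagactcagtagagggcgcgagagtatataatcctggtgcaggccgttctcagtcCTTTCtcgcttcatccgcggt
Rps12: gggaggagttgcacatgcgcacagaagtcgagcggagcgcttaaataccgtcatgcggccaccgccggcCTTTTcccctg
2410006H16Rik: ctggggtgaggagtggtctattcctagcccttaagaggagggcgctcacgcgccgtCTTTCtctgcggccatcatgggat
Rack1: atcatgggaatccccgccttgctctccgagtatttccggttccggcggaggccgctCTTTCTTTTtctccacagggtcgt

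Snhg12, Rps12, 2410006H16Rik and Rack1 held a match, which in Rack1 was 2 matches sharing a C, and Snhg3 and Ncl held none in this window. Of the 30 enclosing genes with a promoter entry, 10 (33.3%) held CTTTC or CTTTT on the transcribed strand, against 10.9% of the 27025 genes with an entry. On the other strand the shares were 6.67% and 9.82%. The letters describe the sequence and are not evidence of a start site.

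The proteins that bind and make snoRNAs were read from the same arrays. The counts of called genes below stand beside 1.8% of all genes called higher and 2.73% lower on 8 arrays, and 5.26% and 7.57% on 7. At an unadjusted p under 0.05 the shares of all genes were 7.96% and 7.47% on 8 arrays, and 11.9% and 12.8% on 7. The lists are short, so a single gene is a large share of most of them. None of the 4 core C/D proteins (Fbl, Nop56, Nop58 and Snu13) and none of the 4 core H/ACA proteins (Dkc1, Gar1, Nhp2 and Nop10) was called on 8 arrays (limma; 2 of each set higher and 0 lower at an unadjusted p under 0.05). Their median changes were 0.15 and 0.14, beside -0.03 for all genes. On 7 arrays Nop56 and Nop58 rose in the C/D set, and Nhp2 rose in the H/ACA set. Nop58, a core subunit next to fibrillarin, had 10.05 and 10.12 in DaxxA cells and 9.99 and 10.09 in DaxxB cells, against 9.81, 9.59, 9.82 and 9.89 in vector cells (0.22 on 7 arrays, adjusted p = 0.0109; 0.29 on 8, adjusted p = 0.0684, limma). All Daxx arrays lay above all vector arrays. Fibrillarin itself, the methyltransferase, had a change of 0.02 (adjusted p = 0.869), and dyskerin, Dkc1, one of 0.05 (adjusted p = 0.687).

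Of 12 assembly factors 0 rose and 1 fell on 8 arrays. At an unadjusted p under 0.05 (limma), 3 were higher and 1 lower, on 8 arrays and again on 7. The one that fell was Naf1, which holds newly made H/ACA particles before Gar1 replaces it. It had 9.65 and 9.63 in DaxxA cells and 9.52 and 9.57 in DaxxB cells, against 9.82, 10.01, 9.78 and 9.99 in vector cells (-0.30 ± 0.070, SE; adjusted p = 0.0462 on 8 arrays and 0.0135 on 7, limma). Shq1, a chaperone of dyskerin, went the other way, with 8.43 and 8.29 in DaxxA cells and 8.27 and 8.31 in DaxxB cells, against 8.03, 7.86, 7.97 and 8.22 in vector cells. It was called on 7 arrays only (0.25, adjusted p = 0.0269; 0.31 on 8, adjusted p = 0.0757, limma). Neither group of values overlapped between the conditions. Among 16 trimming, capping and debranching factors 0 were called on 8 arrays (limma; 2 higher and 1 lower at an unadjusted p under 0.05), and on 7 arrays the exonucleases Xrn1 (-0.29, adjusted p = 0.0305) and Xrn2 (-0.22, adjusted p = 0.0185) fell. None of 5 Cajal body and nucleolus proteins and none of 6 non-coding host genes with a probe set of their own (Gas5, Snhg5, Snhg11, Snhg15, Snhg16 and Snhg17) was called on 8 or 7 arrays (limma). At an unadjusted p under 0.05, 0 of the 5 proteins passed on either set of arrays, while 2 host genes were higher on 8 arrays and 3 on 7, with 0 lower.

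Other small RNAs were listed beside the snoRNAs because their transcripts are also short, and their counts stand beside the same shares of all genes. The list of structural RNA genes is not free of snoRNAs. It includes Rnu3a, the gene of the U3 snoRNA of the C/D class, whose symbol falls outside the rule for members (change 0.22, adjusted p = 0.482, limma). It also includes Terc, the telomerase RNA, which has an H/ACA domain (0.08, adjusted p = 0.69, limma). Among 12 other structural RNA genes 0 were called on 8 arrays (limma; 2 higher and 0 lower at an unadjusted p under 0.05), and 2 rose on 7: Rmrp, the RNA of the RNase MRP enzyme (0.24, adjusted p = 0.0483, limma), and Rnu12, a spliceosomal RNA (0.22, adjusted p = 0.0474). Their median change was 0.21 on 8 arrays. DaxxA 2 was the highest array for 6 of 12, as for most C/D genes. The lowest array was vector 1 for 7 of 12 and vector 2 for 3, whereas more C/D genes were lowest on vector 2 (14 of 31) than on vector 1 (9 of 31). Rny3, a Y RNA, had 11.01 and 11.56 in DaxxA cells and 11.03 and 11.22 in DaxxB cells, against 10.12, 10.86, 11.21 and 11.13 in vector cells. Vector 1 was far below the others, and the change of 0.38 was not called (adjusted p = 0.547, limma). The 59 ribosomal protein genes, 1 of which rose and 0 of which fell, had a median change of 0.05. The 300 microRNA genes, 0 higher and 7 lower, had one of -0.07. DaxxA 2 was the highest array for 18 of the ribosomal protein genes and 14 of the microRNA genes, against 6.92% of all genes. Vector 1 was the lowest for 17 and 38 of them, against 8.28%. In size, the median deviation of the ribosomal protein genes was 0.03 on DaxxA 2, as on DaxxB 2. It was 0.23 for C/D, 0.19 for H/ACA and 0.16 for the other structural RNA genes on DaxxA 2. The median change of the microRNA genes was 0.01 on 7 arrays, where 2 rose and 14 fell. Vector 2 was the highest array for 186 of the 300, against 42.3% of all genes and 87.1% of the olfactory receptor genes. On DaxxA 2 the median deviation was -0.06 for the microRNA genes and -0.06 for the olfactory receptor genes. The microRNA genes thus resembled genes at the floor, and their values cannot show whether microRNAs were high on DaxxA 2. The 3 small Cajal body RNA genes, which resemble snoRNAs and modify spliceosomal RNAs, had changes of 0.31 (Scarna8), 0.17 (Scarna13) and 0.05 (Scarna17), with none called (limma; 1 higher and 0 lower at an unadjusted p under 0.05). The part of RNA quality, labelling or recovery of short RNAs in the shifts of DaxxA 2, vector 1 and vector 2 was not tested.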

How the data were processed

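Total RNA from 8 fibroblast samples was amplified from poly(T) and random primers and hybridised to Affymetrix arrays, per the labels' protocols. The authors deposited log2 signals, made with RMA in Affymetrix Expression Console, per the submitters' processing notes; the sources used here give neither their versions nor a build. Of 35556 probe sets, 21789 carried 1 gene symbol, 1621 several and 12146 none. The probe set with the highest mean represented each gene (19938 genes; 1851 probe sets set aside).

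Groups came from the source names and titles. Changes were tested with limma 3.58.1 (R 4.3.3; lmFit and eBayes) over all 19938 genes with Benjamini-Hochberg adjustment, calling genes at adjusted p below 0.05: Daxx against vector as 2 conditions, and DaxxA, DaxxB and vector as 3 groups. The procedure was also tested on simulated data. No arrays held identical values. The genes named were those called, the 6 highest and 6 lowest changes, the 5 strongest signals and the largest array or group gaps per class, plus up to 4 of each related list. Snord104, Snord22, Snord33, Snord118 and some genes of the related lists were named after their values were seen, for their non-overlapping groups or known roles. Enclosing genes came from RefSeq (GRCm38.p6), which matched 51 of 51 members, without regard to strand, since the table gives none. Histone genes were not analysed here. Members and lists were chosen with earlier results of these data known. The alternatives were leaving out arrays, blocking by replicate number, other probe set rules, requantiling, a low-signal filter, trended or weighted fits, and a 3-group fit.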

Additional observations from a re-analysis of the deposited data

Results flagged for a closer look

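In groups of 4 arrays, 9 of 102 groups of snoRNA values had one array farther from the rest than Dixon's criterion allows at the 95% level, which chance gives in about 1 in 20 groups. DaxxA 2 was the high array in 4 of them. Among the Daxx arrays it reached 8.11 for Snora16a (the other 3 lay between 7.68 and 7.73), 12.17 for Snora52 (11.96 to 11.98), 7.50 for Snora70 (7.45 to 7.45) and 4.96 for Snord38a (4.74 to 4.77). DaxxB 1 was the low Daxx array for Snora75, at 7.20 (the others 7.38 to 7.40). Among the vector arrays, vector 2 was low for Snord42b, at 7.52 (8.56 to 8.61), and for Snord95, at 8.52 (8.81 to 8.84), and high for Snora41, at 5.48 (4.81 to 4.86). Vector 1 was low for Snord57, at 10.08 (11.11 to 11.18). The differences in Snora70 and Snord38a were small, and Snora41 and Snord38a lay in the range of the olfactory receptor genes. The cause of these single-array values was not tested.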

How the results depend on the processing

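For Daxx minus vector, 3 snoRNA genes were called on 8 arrays, and 0 to 7 when each array was left out in turn. The count was 0 with a replicate block (0.00502% of all genes called in either direction), 12 with array weights (16.2%), 0 as the mean of DaxxA and DaxxB in 3 groups (4.05%), and 0 with vector 1 and DaxxA 2 both left out (1.16%), against 4.52% of all genes on 8 arrays. DaxxA minus vector gave 0 on 8 arrays, 0 to 10 with arrays left out, 2 after a second quantile normalization (3.33% of all genes), 1 with a trended robust fit (2.91%), 14 with array weights (13.6%) and 7 without vector 1 and 2 (8.28%). DaxxB minus vector gave 0, then 0 to 7, 1 after quantile normalization (5.33%), 1 among genes above the olfactory receptor median (3.26%), 8 with weights (21.3%) and 7 without vector 1 and 2 (17.3%). DaxxA minus DaxxB gave 0, then 0 to 3, 2 with weights (2.43%) and 4 without vector 1 and 2 (1.89%). The H/ACA median of 0.18 moved to 0.27 with the replicate block. It was 0.0815 without vector 1 and 2 and 0.0943 without vector 1 and DaxxA 2. Leaving out single arrays gave 0.12 to 0.23 for H/ACA and 0.16 to 0.30 for C/D genes. Only vector has replicates 3 and 4, so the block fit in effect compared the Daxx arrays with vector 1 and vector 2 alone. Those were the lowest arrays of both classes. At an unadjusted p under 0.05 (limma), 25 snoRNA genes passed with the block, against 14 without it. The shares of all genes were 12.3% and 15.4%. The 2 alternatives that leave out 2 arrays were chosen after seeing the data. Among replicates 1 and 2, correlations of deviations from the group means were 0.02 to 0.16 for same-numbered arrays. They were -0.16 to -0.02 for differently numbered arrays. With 2 arrays in each Daxx group these values mirror each other, so they cannot tell whether the numbers pair the arrays.

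Uncalled genes changed sign as follows. With arrays left out in turn, changes ranged from -0.0081 to 0.0359 for Snora30, -0.142 to 0.0834 for Snora41, -0.0451 to 0.0634 for Snora62, -0.0199 to 0.102 for Snora70, -0.0089 to 0.162 for Snord15a, -0.0557 to 0.135 for Snord16a, -0.11 to 0.22 for Snord42a, -0.052 to 0.312 for Snord42b and -0.018 to 0.0735 for Snord96a. Without vector 1 and 2, they were -0.0287 for Snora3, 0.0976 for Snora41, 0.0426 for Snora62, -0.0553 for Snord16a, -0.0061 for Snord35b, -0.043 for Snord42a, -0.0622 for Snord42b and -0.0544 for Snord96a. Without vector 1 and DaxxA 2, they were -0.0062 for Snora30, -0.0323 for Snora70, -0.0069 for Snord118, -0.0237 for Snord15a, -0.171 for Snord42a, -0.0251 for Snord57 and -0.0061 for Snord96a. Array weights gave 0.0846 for Snora41, 0.0638 for Snora62, -0.0403 for Snord16a, -0.0359 for Snord42b and -0.0079 for Snord96a. Quantile normalization gave 0.0131 for Snora41, 0.0586 for Snora62, 0.028 for Snord38a and 0.0072 for Snord61. The cause of these shifts was not tested. Snora21, Snora3, Snora30, Snord118 and Snord58b had 2 probe sets each, and none disagreed in sign.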
